A study of Rattus norvegicus with 24 samples.

Results

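The neurotrophins brain-derived neurotrophic factor (Bdnf) and neurotrophin 3 (Ntf3) and the receptors Ntrk2 (TrkB), Ntrk3 (TrkC) and Ngfr (p75) were followed in rat brain tissue labelled as forebrain, taken 96 h after rats received D-serine once. All probe sets whose platform annotation gives 1 of these 5 symbols and no other were taken, which gave 10 probe sets of the 31099 on the array, for 5 of the 14218 genes named there. Ntrk2 had 5 of these probe sets, Bdnf 2, and Ntf3, Ntrk3 and Ngfr 1 each. The animals were male F344 rats of 11 to 12 weeks with no genetic change named in the labels. Vehicle (0 mg/kg) or 5, 20, 50, 200 or 500 mg/kg of D-serine was given to 4 rats each, 24 rats in 6 groups, with 1 Affymetrix array of a section of about 30 mg per rat. How the section was cut is not given in the sources used here. The study compared each dose with vehicle.

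Neurotrophins are secreted growth factors that keep neurons alive during development and adjust synapses in the adult brain. They are made as precursors and cut to mature dimers. Each mature factor prefers 1 Trk receptor tyrosine kinase, Bdnf binding Ntrk2 and Ntf3 binding Ntrk3, while Ngfr binds the whole family and, with sortilin, the precursors. Ntrk2 and Ntrk3 genes give full-length receptors with a kinase and shorter forms without one. In forebrain the full-length Ntrk2 is mainly neuronal, and a truncated form is abundant in astrocytes. D-serine, with glutamate, opens the NMDA receptor, and calcium entry through that channel is a known inducer of Bdnf transcription through the factor CREB.

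That route runs through promoters inside the Bdnf locus, which has several start sites. RefSeq's promoter table (GRCr8) held 6 entries of Bdnf and 3 of Ntf3, so that 2 of the 5 genes were matched. The bases before each start were searched for TGACG, the core of a CREB site, on both strands (CGTCA on the other). Of these 9 windows of 250 bases, 1 held the motif, against 18.2% of the 33469 windows in the whole table. It belongs to a Bdnf entry on the plus strand, at chr3:116637608-116637857. It is shown because it is the member sequence through which an NMDA receptor signal would be looked for, with the match, which begins 35 bases before the start, in capitals.
Bdnf, start with the motif: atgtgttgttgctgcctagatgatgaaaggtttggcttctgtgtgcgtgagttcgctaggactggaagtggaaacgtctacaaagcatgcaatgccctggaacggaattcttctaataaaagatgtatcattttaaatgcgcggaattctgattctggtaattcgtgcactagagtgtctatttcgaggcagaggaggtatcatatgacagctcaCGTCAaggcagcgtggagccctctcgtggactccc
A match is a description of these letters, and which start a Bdnf probe set reads is not given by the annotation.

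The values are log2(quantile-normalized intensity + 16), and they are given on that scale throughout, as levels of 1 probe set across arrays. Intensity differs between probe sets by their own probes, so an order of brightness or a percentile describes the signal and not the amount of RNA. A probe set is said to have risen or fallen where its p from limma, a linear model fitted to all probe sets, is under 0.05 after Benjamini-Hochberg adjustment over the 18625 probe sets tested. Of the 10 members, 7 passed the filter that left out the dimmest 40% of probe sets. They are the 5 of Ntrk2, the Bdnf probe set 1368677_at and the Ntrk3 probe set. The second Bdnf probe set, Ntf3 and Ngfr did not pass, and their values come from a fit without that filter.

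The array of 500 mg/kg replicate 4 stood apart from the other arrays over all probe sets tested. Its median correlation with the other arrays was 0.855, against 0.957 to 0.971 for the other 23. The summed intensity of 10 measured cerebellar markers (of 12 listed) was 19392 on it and 377 to 836 on the other 23, while that of 8 forebrain markers (of 10) was 1196 against 6121 to 9902. The summed forebrain markers, among them Lhx2, a cortical transcription factor, and Nrgn and Camk2a of forebrain neurons, were thus present on the 23 arrays.

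Bdnf did not pass the test at any dose after normalization. Probe set 1368677_at read 6.81, 6.72, 7.44 and 6.46 on the 4 vehicle arrays. At 5 mg/kg it read 7.84, 6.97, 7.35 and 6.60, and at 20 mg/kg 7.60, 6.91, 7.46 and 6.68. The arrays spread over a wider range than in vehicle at 5 mg/kg and about as wide a one at 20 mg/kg. Both ranges overlapped that of vehicle, though their highest arrays lay above it. At 50 mg/kg the values were 6.90, 7.01, 7.11 and 7.38, at 200 mg/kg 6.82, 7.41, 7.68 and 6.91, and at 500 mg/kg 6.83, 6.72, 7.07 and 6.61, the last replicate 4. The differences from vehicle were 0.33, 0.31, 0.24, 0.35 and -0.05 in order of dose, each with a standard error (SE) of 0.25 (n = 4 arrays per group), and limma adjusted p ran from 0.527 to 0.989. The last difference was 0.01 without 500 mg/kg replicate 4. The 95% interval at 5 mg/kg ran from -0.19 to 0.86, so a difference of 0 and a rise of 0.86 both lie within it. The second Bdnf probe set, 1368678_at, lay below the filter with a mean of 5.74, and its differences from vehicle ran from -0.15 to 0.26 (SE 0.21). Its r with 1368677_at over the 23 arrays without 500 mg/kg replicate 4 was 0.10, a description of 2 probe sets read on the same arrays.

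Ntf3, which acts early in cortical development and stays in the adult hippocampus, was dim and variable. Its probe set read 5.75, 6.23, 6.0 and 4.32 in vehicle and 5.69, 5.43, 5.53 and 4.62 at 5 mg/kg. At 20 mg/kg the arrays read 6.72, 4.75, 5.68 and 4.59, and at 50 mg/kg 4.55, 6.55, 6.29 and 6.11. The single highest array was thus in the 20 mg/kg group, whose other arrays lay within the range of vehicle. At 200 and 500 mg/kg the ranges were 4.66 to 5.57 and 5.37 to 6.18. The differences from vehicle ran from -0.46 at 200 mg/kg to 0.30 at 50 mg/kg with an SE of 0.47, and none passed (limma adjusted p from 0.882 to 1.0, fit without the filter). With a mean of 5.50, under the 5.98 at which the filter set in, these values say little about Ntf3 itself.

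**Figure D1:**
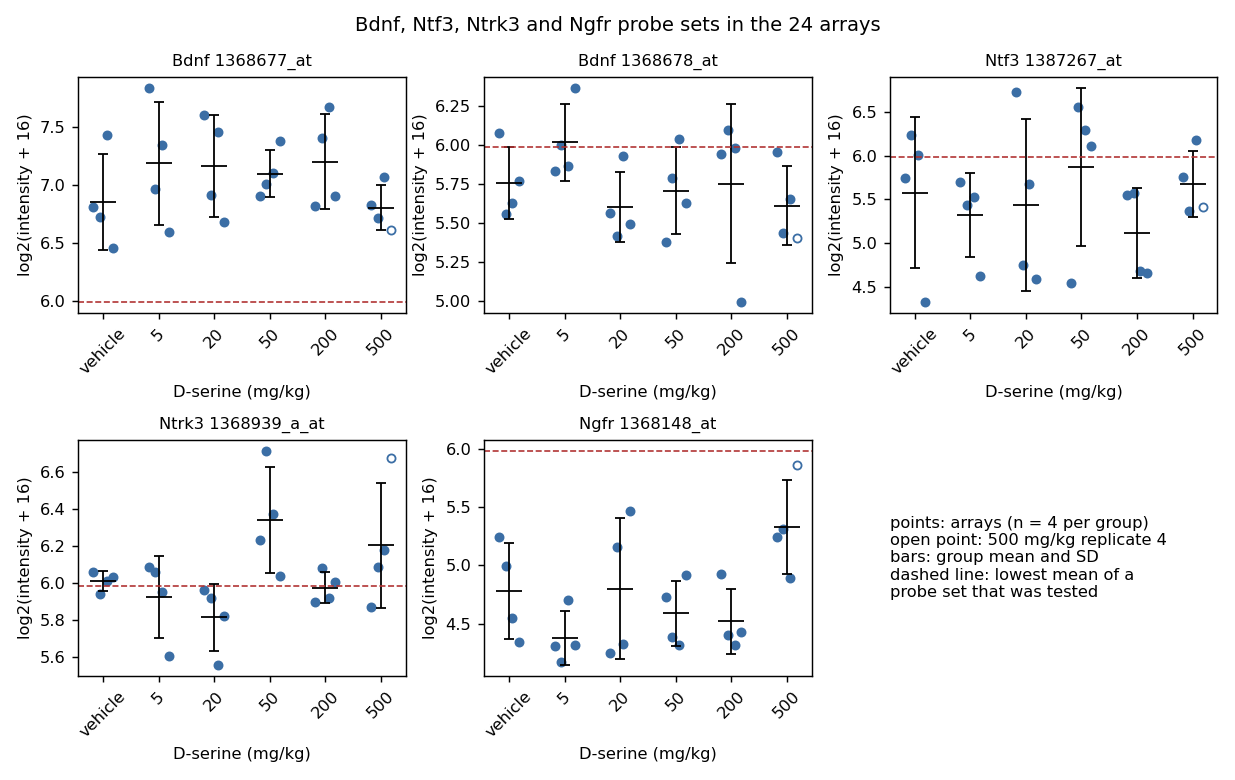
Levels of the 2 Bdnf probe sets and of Ntf3, Ntrk3 and Ngfr on a log2 scale (y axis) in the 6 dose groups (x axis, mg/kg D-serine), with 4 arrays as points and the group mean and SD as bars. The dashed line at 5.98 is the lowest mean of a probe set that was tested, and Ngfr lies below it on all 24 arrays.

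Ntrk2, the receptor of Bdnf, was the member gene that moved, and its 5 probe sets did not move alike. At 20 mg/kg 2 of them fell, 1397246_at by 0.66 and 1370652_at by 0.58 on the log2 scale, and at 5 mg/kg 1397246_at fell by 0.55. Another, 1370687_a_at, lay 0.73 and 0.76 above vehicle at these doses. The brightest probe sets, 1383135_at and 1368972_at, read -0.23 and -0.09 from vehicle at 20 mg/kg. The annotation does not say which form of the receptor each of the 5 reads.

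Probe set 1397246_at read 8.78, 8.37, 8.26 and 8.32 on the vehicle arrays. At 5 mg/kg it read 7.73, 7.85, 7.94 and 8.01, and at 20 mg/kg 7.85, 7.75, 7.69 and 7.82. All 8 arrays of these groups lay below all 4 vehicle arrays. At 50 mg/kg the arrays read 8.15, 8.0, 8.23 and 7.93, which is also below vehicle without overlap, and at 200 mg/kg 8.28, 8.15, 7.95 and 8.08, where the highest array reached into the vehicle range. At 500 mg/kg they read 8.07, 8.18, 8.10 and, on replicate 4, 7.43. In order of level the groups were vehicle (mean 8.43), 200 (8.12), 50 (8.08), 500 (7.94), 5 (7.88) and 20 mg/kg (7.78), and each neighbour in that order overlapped the next. The difference from vehicle was -0.55 ± 0.14 (SE, n = 4 per group, limma adjusted p = 0.0183), or 1.46-fold lower, at 5 mg/kg, and without vehicle replicate 1 or 5 mg/kg replicate 1 it did not pass (adjusted p = 0.0864 and 0.0567). For 20 mg/kg it was -0.66 ± 0.14 (adjusted p = 0.00366), or 1.58-fold lower. At 50, 200 and 500 mg/kg it was -0.35, -0.32 and -0.49 with adjusted p = 0.242, 0.893 and 0.506, so these lower values did not pass. Without 500 mg/kg replicate 4 the last was -0.32 ± 0.11 (adjusted p = 0.707).

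Probe set 1370652_at read 7.33, 6.73, 7.07 and 6.63 in vehicle. At 5 mg/kg it read 6.63, 6.60, 6.45 and 6.24, and at 20 mg/kg 6.46, 6.36, 6.37 and 6.22. The 20 mg/kg arrays all lay below vehicle, while the highest 5 mg/kg array touched the lowest vehicle array. At 50 mg/kg the arrays read 6.77, 6.57, 6.91 and 6.57, at 200 mg/kg 6.94, 7.05, 7.0 and 6.86, and at 500 mg/kg 7.05, 7.37, 6.87 and 6.76. The 2 highest doses lay close to vehicle, with differences of 0.03 and 0.07 (SE 0.14), the latter 0.16 without 500 mg/kg replicate 4. The difference at 20 mg/kg was -0.58 ± 0.14 (SE, n = 4, limma adjusted p = 0.0132), or 1.5-fold lower, and without vehicle replicate 1 it was -0.45 (adjusted p = 0.0625). The 5 mg/kg difference was -0.46 ± 0.14 (adjusted p = 0.0658), and without 500 mg/kg replicate 4, which enters the pooled spread, adjusted p = 0.0405.

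Probe set 1370687_a_at lay on the other side of vehicle. It read 7.82, 7.38, 7.25 and 7.33 in vehicle, 8.16, 8.22, 8.40 and 7.91 at 5 mg/kg, and 8.53, 8.28, 8.04 and 7.96 at 20 mg/kg. All 8 arrays at these doses lay above all 4 vehicle arrays. At 50 mg/kg the values were 7.72, 7.92, 8.01 and 8.12, at 200 mg/kg 7.61, 7.78, 7.69 and 7.85, and at 500 mg/kg 7.57, 7.92, 7.36 and, on replicate 4, 5.88. In the fit of all 24 arrays the differences of 0.73 ± 0.27 at 5 mg/kg and 0.76 ± 0.27 at 20 mg/kg (SE, n = 4) did not pass (limma adjusted p = 0.121 and 0.0837). Without 500 mg/kg replicate 4 the same differences had an SE of 0.14 and passed (adjusted p = 0.00232 and 0.00109). With that array kept, the 20 mg/kg difference also passed with a pseudocount of 64 (0.62, adjusted p = 0.0480) and with array weights (adjusted p = 0.00464). At 500 mg/kg the difference was -0.27 with replicate 4 and 0.17 without it (adjusted p = 0.840 and 0.917).

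The 2 other Ntrk2 probe sets did not pass at any dose. Probe set 1383135_at, the brightest, ran from 10.25 to 10.89 in vehicle, from 10.14 to 10.55 at 5 mg/kg and from 10.12 to 10.55 at 20 mg/kg. Probe set 1368972_at ran from 9.18 to 9.57 in vehicle, from 9.53 to 9.70 at 5 mg/kg and from 9.26 to 9.43 at 20 mg/kg. Their limma adjusted p ran from 0.497 to 0.998. At 20 mg/kg the 95% interval of the difference was -0.61 to 0.14 for the first and -0.47 to 0.29 for the second. On 500 mg/kg replicate 4 both were far below the other 3 arrays of the group, at 9.53 and 8.13. Their 500 mg/kg differences of -0.24 and -0.37 became 0.01 and -0.07 without it.

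**Figure D2:**
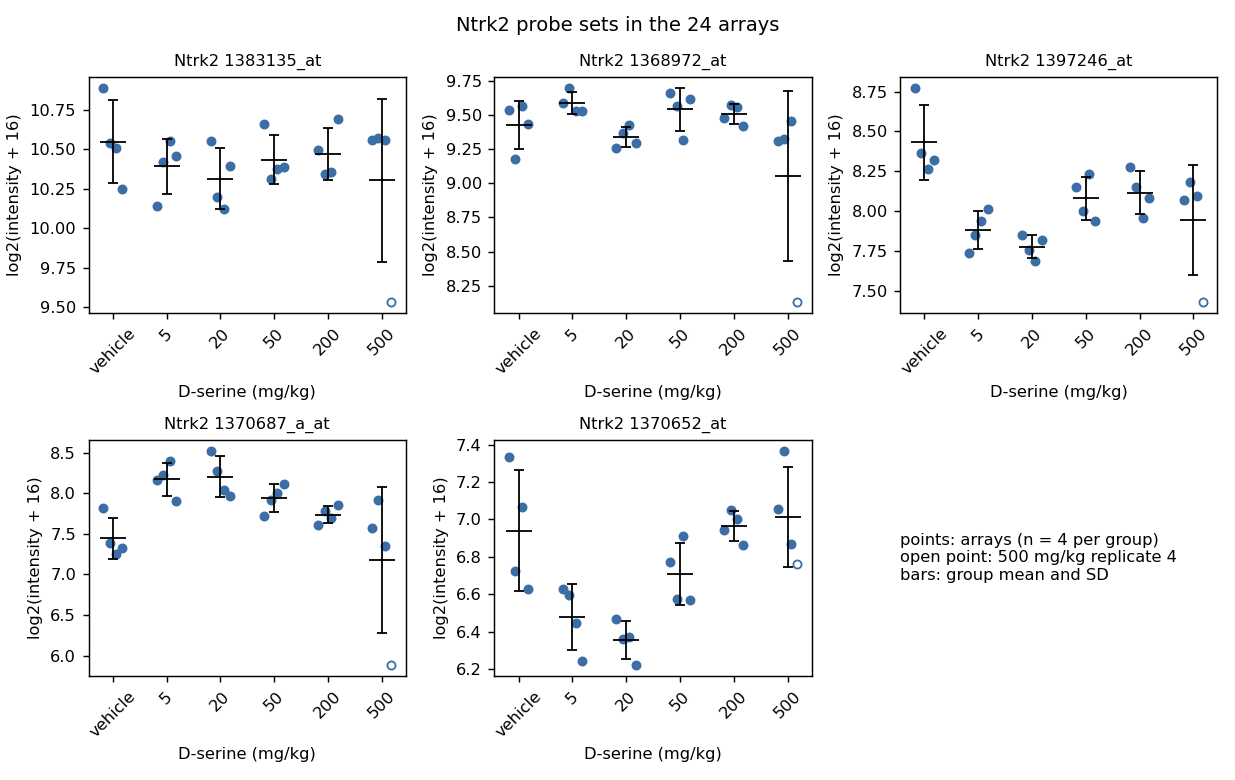
Levels of the 5 Ntrk2 probe sets on a log2 scale (y axis) in the 6 dose groups (x axis, mg/kg D-serine), with 4 arrays as points and the group mean and SD as bars. At 5 and 20 mg/kg 1397246_at lies wholly below vehicle and 1370687_a_at wholly above it, and the open point of 500 mg/kg replicate 4 is the lowest of its group in 5 of 5 panels.

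These calls depend on how the arrays were scaled. On the values as deposited the median of all probe sets lay 0.19 above vehicle at 5 mg/kg and 0.37 above it at 20 mg/kg, against -0.004 after quantile normalization at both. There 1397246_at read -0.32 and -0.24 and 1370652_at -0.29 and -0.25, with no call (limma adjusted p from 0.221 to 0.310). Relative to that median they stayed lower, and 1370687_a_at, at 0.93 and 1.15, passed (adjusted p = 0.0312 and 0.00208). On those values Bdnf 1368677_at also passed at 20 mg/kg, at 0.67 ± 0.26 (limma adjusted p = 0.0465), where the median of all probe sets was 0.37. Of all 18625 probe sets, 1041 passed on those values at 5 mg/kg and 6910 at 20 mg/kg. Of all calls at 20 mg/kg 978 of 1580 were higher after quantile normalization, 1319 of 1634 after median centring and 6890 of 6910 as deposited. At 5 mg/kg the counts were 705 of 1028, 910 of 1051 and 1031 of 1041.

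Counted over the members, 1 of 7 tested probe sets passed at 5 mg/kg, where 5.52% of all probe sets passed in limma (3.79% higher and 1.73% lower), and 2 of 7 at 20 mg/kg, where 8.48% did (5.25% higher and 3.23% lower). All 3 of these calls were lower. At 50, 200 and 500 mg/kg 0 of 7 passed in limma (0.864%, 0% and 0.00537% of all probe sets), and at an unadjusted p under 0.05 there was 1 in each, 1397246_at, where 12.9%, 5.3% and 6.9% of all probe sets fell under that p. Groups that did not overlap with vehicle were seen for 2, 3, 1, 0 and 1 of the 7 in order of dose, against 13.6%, 15.9%, 8.05%, 3.51% and 2.73% of all probe sets. Since 5 of the 7 are read from 1 gene, these counts are not independent. The 5 comparisons share the 4 vehicle arrays, so their values are set side by side and not counted as repeats. Each group is also a separate block of animal numbers, so none of these comparisons can be told apart from animal order. Without 500 mg/kg replicate 4, 3 of 7 passed at 5 mg/kg and 3 of 7 at 20 mg/kg, where 8.98% and 12.7% of all probe sets did, and 0 of 7 at 50, 200 and 500 mg/kg (2.45%, 0% and 0.00537%).

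**Figure D3:**
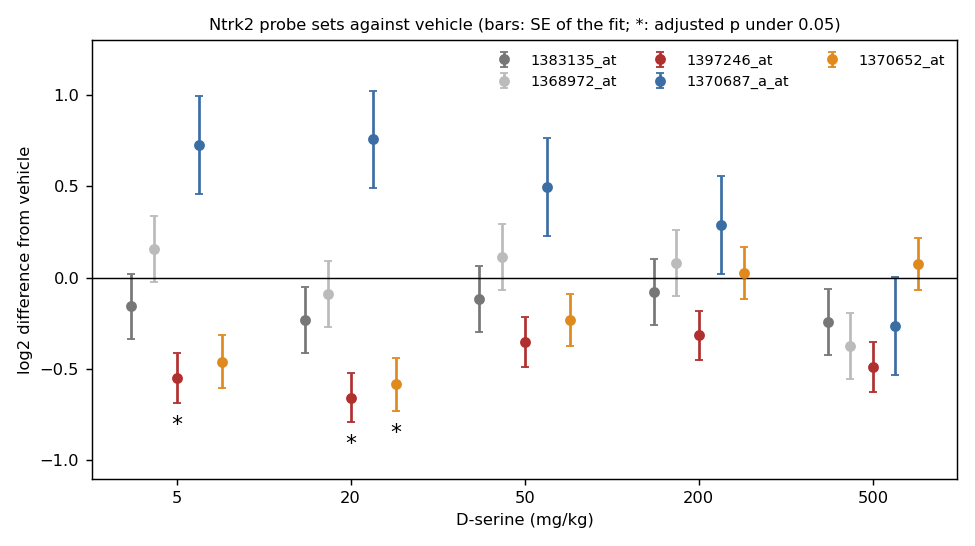
Differences from vehicle of the 5 Ntrk2 probe sets in log2 units (y axis) at the 5 doses (x axis, mg/kg D-serine), with the SE of the limma fit as bars and a star where adjusted p was under 0.05. The 3 starred values are -0.55 at 5 mg/kg and -0.66 and -0.58 at 20 mg/kg, while 1370687_a_at lies at 0.73 and 0.76.

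The unequal change of probe sets of 1 gene was tested directly, as the per-array difference of their log2 values, for all 10 pairs of Ntrk2 probe sets and the Bdnf pair. The Ntrk2 pair 1370687_a_at and 1397246_at had the largest mean size of change from vehicle over the doses and was picked for it. Between these probe sets the 4 vehicle arrays read -0.96, -0.98, -1.01 and -0.99. At 5 mg/kg the arrays read 0.43, 0.37, 0.46 and -0.10, and at 20 mg/kg 0.68, 0.53, 0.36 and 0.15. At 50 mg/kg they read -0.43, -0.08, -0.22 and 0.19 and at 200 mg/kg -0.66, -0.37, -0.26 and -0.23. All arrays of these 4 dose groups lay above all vehicle arrays, the distance being widest at 20 and narrowest at 200 mg/kg. The 500 mg/kg arrays, at -0.50, -0.26, -0.74 and -1.55, lay on both sides of vehicle, the last of them replicate 4. The mean change was 1.27 at 5, 1.41 at 20, 0.85 at 50 and 0.60 at 200 mg/kg (exact two-sided permutation p = 0.0286 for each, the smallest that 4 against 4 arrays can give). Since the pair was picked for its change, these p-values only describe it.

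Over the 11 pairs and 5 doses, 17 of 55 tests were without overlap and so reached that smallest exact p, 7 at 5, 6 at 20, 2 each at 50 and 200, and 0 at 500 mg/kg. All 17 were pairs of Ntrk2 probe sets, as were all of the 11 pairs but that of Bdnf. After Benjamini-Hochberg adjustment over the 55 the exact permutation p was 0.0924, so 0 passed at 0.05. In a recount that left out 500 mg/kg replicate 4, 19 of 55 were without overlap. The pairs share probe sets and vehicle arrays, so these tests are not independent. The share without overlap among pairs of probe sets of other genes was not counted. Between 1370652_at and 1397246_at, both of which fell at 20 mg/kg, no dose gave the smallest p.

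**Figure D4:**
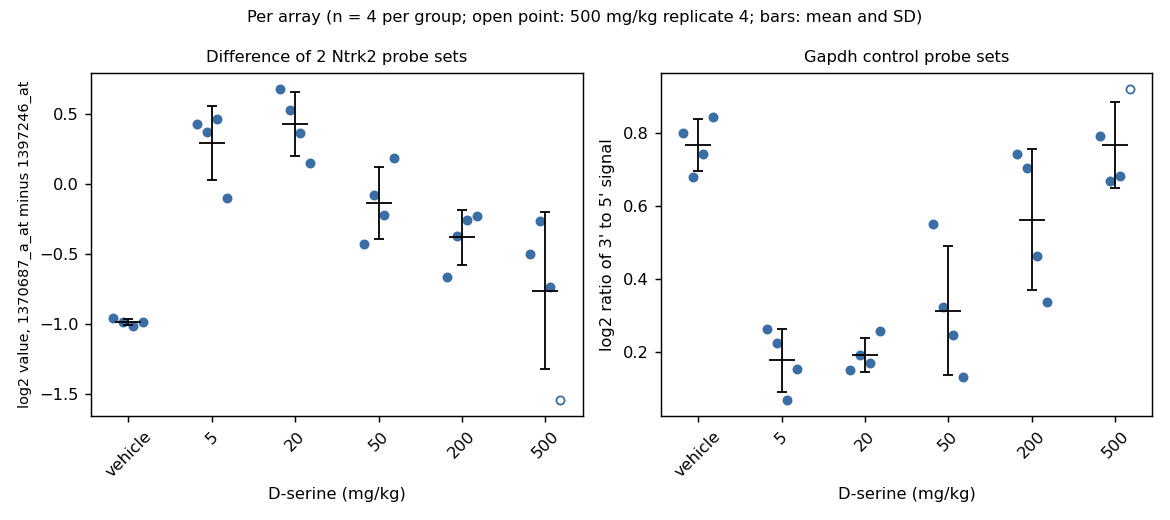
Left, the difference of the log2 values of Ntrk2 probe sets 1370687_a_at and 1397246_at on each array (y axis) by dose group (x axis, mg/kg D-serine); right, the Gapdh control ratio (log2, 3′ over 5′ probe set) on the same arrays. Points are arrays, and bars are the mean and SD. The left group means are -0.99 in vehicle and 0.43 at 20 mg/kg, and the right ones 0.77 and 0.19.

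The length of the labelled RNA, read from control probe sets at both ends of a transcript, moved with the same groups. The log2 ratio of 3′ to 5′ Gapdh signal was 0.77 ± 0.07 (SD, n = 4) in vehicle, 0.18 ± 0.09 at 5, 0.19 ± 0.05 at 20 and 0.31 ± 0.18 at 50 mg/kg, with no overlap with vehicle (exact permutation p = 0.0286, adjusted p = 0.0476 over 5 comparisons). At 200 and 500 mg/kg it was 0.56 ± 0.19 and 0.77 ± 0.12. The beta-actin ratio was likewise below vehicle on every array at 5, 20 and 50 mg/kg. In a fit that also held this Gapdh ratio as a term, 1397246_at read -0.62 ± 0.25 at 5 and -0.72 ± 0.25 at 20 mg/kg and 1370652_at -0.56 ± 0.27 at 20 mg/kg, each with SE. No probe set of the 18625 passed limma at 5 or 20 mg/kg in that fit (smallest adjusted p among the 3 values 0.904). When 500 mg/kg replicate 4 was also left out, the 3 values were -0.39, -0.50 and -0.45, again with no call. Probe set 1370687_a_at read -0.11 ± 0.44 at 20 mg/kg with this term, and 0.39 ± 0.26 without that array. At 5 and 20 mg/kg the ratio did not overlap with vehicle, so these fits cannot tell the ratio from the dose group. The SE of 1397246_at at 20 mg/kg was 0.25 with the Gapdh term and all arrays, against 0.14 without the term. The part of RNA length in the Ntrk2 values was not tested otherwise.

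Cell type markers were set beside the same groups, with no test. The summed intensity of 7 measured oligodendrocyte markers (of 8) ranged over 15118 to 22522 in vehicle, 12666 to 15579 at 5 mg/kg and 10682 to 15780 at 20 mg/kg, ranges that overlap. That of 7 thalamic markers (of 8) was 4595 on vehicle replicate 2 and 950 to 1026 on the other vehicle arrays, 782 to 1129 at 5 mg/kg and 751 to 1087 at 20 mg/kg. The 6 measured choroid plexus markers (of 8) reached 12106 on that same vehicle array, 712 to 1318 on the other 3, and at most 734 at 5 and 20 mg/kg. The 10 astrocyte markers, a cell type that carries truncated Ntrk2, summed to 18735 to 21573 in vehicle, 18445 to 21728 at 5 mg/kg and 17673 to 21748 at 20 mg/kg, with overlap. None of these markers was at 0, and their part in the Ntrk2 values was not tested. In such bulk samples fewer cells of a type and less RNA per cell cannot be told apart.

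Ntrk3, the receptor of Ntf3, was read close to the filter. Its probe set 1368939_a_at gave 6.06, 5.94, 6.01 and 6.03 in vehicle, 6.08, 6.06, 5.95 and 5.60 at 5 mg/kg and 5.96, 5.92, 5.55 and 5.82 at 20 mg/kg. At 50 mg/kg it gave 6.23, 6.72, 6.37 and 6.04, higher on 3 of 4 arrays than any vehicle array. At 200 mg/kg it gave 5.90, 6.08, 5.92 and 6.0, and at 500 mg/kg 5.87, 6.09, 6.18 and 6.68. The difference at 50 mg/kg was 0.33 ± 0.16 (SE, n = 4, limma adjusted p = 0.388) and that at 20 mg/kg -0.20 ± 0.16 (adjusted p = 0.522). No dose passed, and the 500 mg/kg value went from 0.19 to 0.04 without replicate 4.

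Ngfr, which in adult forebrain is best known from the cholinergic neurons of the basal forebrain, was at the bottom of the scale. Its probe set 1368148_at read from 4.34 to 5.24 in vehicle, 4.17 to 4.71 at 5, 4.25 to 5.46 at 20, 4.32 to 4.91 at 50, 4.32 to 4.93 at 200 and 4.89 to 5.87 at 500 mg/kg. Its mean of 4.73 was higher than that of 12.2% of all probe sets. The difference at 500 mg/kg, 0.55 ± 0.26 (SE, n = 4, limma adjusted p = 0.771, fit without the filter), did not pass, and its highest array was replicate 4, without which it was 0.37 ± 0.26 (adjusted p = 0.911). The 4 measured cholinergic markers (of 8), Chat, Slc18a3, Slc5a7 and Isl1, were below the filter too, and their summed intensity was 38 to 184 over all 24 arrays.

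Across the 6 groups together, 2 of the 7 tested members differed in limma's F test, where 5.93% of all probe sets passed. They were 1370652_at (adjusted p = 0.0124) and 1397246_at (adjusted p = 0.0318). With median centring 1397246_at did not pass (adjusted p = 0.0640) and 1370687_a_at did (0.0445). Probe set 1370687_a_at had adjusted p = 0.0642, and 0.00385 without 500 mg/kg replicate 4, when 3 of 7 members and 7.52% of all probe sets passed. Of the 24 fits that left out 1 array, 1370652_at passed in 24 and 1397246_at in 17. The latter did not pass without vehicle replicate 1, 2 or 4, 5 mg/kg replicate 2 or 20 mg/kg replicate 1, 2 or 3, with adjusted p up to 0.108.

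A difference that leaves out the vehicle means, 20 against 200 mg/kg, was taken from the same fit of all 24 arrays. The vehicle arrays still entered its pooled spread. In it 1 of 7 members passed, against 1.46% of all probe sets. The arrays of these 2 groups did not overlap for 3 of the 7, namely 1370652_at, 1397246_at and 1370687_a_at. The share of all probe sets without overlap was not counted here. Probe set 1370652_at was lower at 20 mg/kg by 0.61 ± 0.14 (SE, n = 4, limma adjusted p = 0.0333). It had adjusted p = 0.0576 with no filter, and it did not pass in 7 of the 24 fits that left out 1 array, any of the 20 mg/kg arrays or 200 mg/kg replicate 1, 2 or 3 (highest adjusted p = 0.130). Probe sets 1397246_at and 1370687_a_at differed by -0.34 and 0.47 (adjusted p = 0.254 and 0.487), or 0.0706 and 0.0755 without 500 mg/kg replicate 4, when 3.1% of all probe sets passed.

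No member had a slope over dose rank from vehicle to 500 mg/kg that passed in limma, nor did any of the 18625 probe sets, and 0 of 7 members had an unadjusted p under 0.05. Within the 5 treated groups, 1370652_at rose with dose rank by 0.17 ± 0.031 per step (SE, limma adjusted p = 0.00132) and 1370687_a_at fell by 0.25 ± 0.062 per step (adjusted p = 0.0139). There 10.3% of all probe sets passed. Without 500 mg/kg replicate 4 the slopes were 0.18 ± 0.031 and -0.16 ± 0.032, and 1397246_at rose by 0.083 ± 0.023 per step (adjusted p = 0.0290), where 7.82% of all probe sets passed. With vehicle included, the slopes of 1370652_at and 1370687_a_at were 0.06 and -0.08 per step (limma adjusted p = 0.832 for both). Animal numbers in the labels run in blocks by group, falling in order as dose rises over the treated groups. Dose rank within these groups therefore cannot be told apart from animal order. The vehicle animals have the lowest numbers, next to the 500 mg/kg group and farthest from the 5 mg/kg group. Differences from vehicle and between doses thus cannot be told apart from animal block either, and the part of animal order was not tested. The mean Gapdh ratio also differed along the treated groups, from 0.18 at 5 to 0.77 at 500 mg/kg. Its part in the slopes within these groups was not tested.

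The genes most like each member over the 23 arrays without 500 mg/kg replicate 4 were looked up by Pearson's r, as a description with no test, since arrays share dose group and RNA length. For Bdnf (1368677_at) they were Nipsnap3b (r = 0.84, Spearman's rho 0.86), the proton pump gene Atp6v1b2 (0.79, 0.83) and the hexokinase gene Hk1 (0.77, 0.66). For Ntf3 they were Wnt4, a secreted signal (0.83, 0.81), Pacs1 (0.81, 0.84) and Dcakd (0.79, 0.74), and for the brightest Ntrk2 probe set the ribosomal gene Rpl35 (0.79, 0.78), Mtrex (0.79, 0.78) and Naca (0.76, 0.73). Ntrk3 gave Scn3b, a sodium channel subunit (0.69, 0.42), Ankrd53 (0.68, 0.51) and Prrt1 (0.66, 0.53), and Ngfr gave Ndrg2 (0.67, 0.66), Tbccd1 (0.64, 0.63) and Slc13a5 (0.64, 0.65). With all 24 arrays r was 0.74, 0.79 and 0.78 for the Bdnf genes but 0.62, 0.03 and -0.28 for the Ntrk2 genes, and it was -0.17 for Scn3b with Ntrk3 and -0.03 for Slc13a5 with Ngfr. These likenesses are thus descriptions of the 23 arrays.

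For the other 4 Ntrk2 probe sets, a choice made after their values were seen, the most alike genes differed. Probe set 1397246_at went with the splicing gene Srrm2 (r = 0.93), Ccar1 (0.92) and the splicing gene Son (0.91). Probe set 1370652_at went with the G protein subunit gene Gnb1 (0.87), the diacylglycerol kinase gene Dgkd (0.82) and Med1 of the Mediator complex (0.81). Probe set 1370687_a_at went with the protein repair gene Pcmt1 (0.89), the ubiquitin ligase gene Rbx1 (0.88) and the Golgi GTPase gene Arl1 (0.88), and 1368972_at with Cyren (0.71), Basp1 (0.69) and Anp32e (0.67). Here too r fell with all 24 arrays for some, as to 0.33 for Son and to -0.29 for Anp32e. Among the Ntrk2 probe sets themselves r was 0.69 between 1397246_at and 1370652_at and -0.60 between 1397246_at and 1370687_a_at, over the same 23 arrays.

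Of 126 other or member genes in 7 lists of the neurotrophin pathway, 91 were measured above the filter, each taken at its brightest probe set. At 5 mg/kg 1 of 91 rose and 0 fell in limma, and at 20 mg/kg 2 rose and 4 fell, where 5.52% and 8.48% of all probe sets passed. At 50, 200 and 500 mg/kg 0 of these probe sets passed. The median difference of the 91 was 0.02, -0.03, -0.01, 0.02 and -0.05 in order of dose, beside medians within 0.01 of 0 for all probe sets. Without 500 mg/kg replicate 4 the counts were 2 of 91 at 5 and 13 of 91 at 20 mg/kg, 5 higher and 8 lower, where 8.98% and 12.7% of all probe sets passed. These genes were not refitted on the values as deposited.

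Mapk9 rose at 5 and 20 mg/kg, where 5.52% and 8.48% of all probe sets passed. It codes for JNK2, a stress kinase that p75 can activate. Its brightest probe set rose by 0.65 ± 0.14 at 5 mg/kg (SE, n = 4, limma adjusted p = 0.00834) and by 0.70 ± 0.14 at 20 mg/kg (adjusted p = 0.00308). Its second probe set, 1368646_at, rose by 1.14 and 1.21, and also by 0.84 at 50 mg/kg (adjusted p = 0.0147), and it was higher by 0.88 at 20 than at 200 mg/kg (adjusted p = 0.00614). In the list of p75 signalling 1 other gene of 13 measured moved, Adam17, the protease that sheds the outer part of p75, which fell by 0.47 ± 0.11 at 20 mg/kg (adjusted p = 0.0122).

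Among 16 Trk adaptors 2 moved at 20 mg/kg, where 8.48% of all probe sets passed, and 0 at any other dose. Gab1, a docking protein that brings in phosphatidylinositol 3-kinase, fell by 0.58 ± 0.16 (SE, n = 4, limma adjusted p = 0.0229), and the adaptor gene Crkl rose by 0.43 ± 0.13 (adjusted p = 0.0371). Of 18 genes of the Ras, phosphatidylinositol 3-kinase and downstream kinases 1 moved, Gsk3b, a kinase that Akt inhibits, which fell by 0.41 ± 0.12 (adjusted p = 0.0329). Of 11 regulators of Bdnf transcription Nfkb1 fell by 0.58 ± 0.18 (adjusted p = 0.0484). None of 7 measured genes of the ligands and their processing passed, the protease gene Furin reading 0.09 ± 0.11 at 20 mg/kg. None of 10 receptors and co-receptors passed when Ntrk2 was taken at 1383135_at. Without 500 mg/kg replicate 4, Nck1 and Bhlhe40 also rose at 20 mg/kg, and Rap1a, Pik3ca, Akt1 and Hdac2 also fell. In that fit 12.7% of all probe sets passed at 20 mg/kg.

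The 17 measured genes that Bdnf is known to induce gave 0 calls at any dose in limma, and 1 without 500 mg/kg replicate 4. This was Sst, which codes for somatostatin (0.44 at 20 mg/kg, limma adjusted p = 0.0498), where 12.7% of all probe sets passed. The median difference of all probe sets tested was -0.004, -0.004, -0.002, 0.006 and 0.003 in order of dose. That of the 17 genes was 0.13 at 5, -0.10 at 20, 0.10 at 50, 0.05 at 200 and -0.15 at 500 mg/kg. Of the 17, 16, 7, 12, 11 and 1 lay above vehicle, a share not counted over all probe sets. The 500 mg/kg values rest on replicate 4, without which the median was 0.14 and 14 of 17 lay above vehicle. Arc, an immediate early gene of active synapses, read -0.23, -0.56, 0.02, -0.44 and -0.42 (SE 0.31), and Vgf, a secreted peptide precursor, 0.07, -0.14, 0.02, 0.05 and -0.42 (SE 0.32). Without that array their 500 mg/kg values were 0.03 and 0.12.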

How the data were processed

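Total RNA of 1 brain section per rat was measured on 24 Affymetrix rat arrays, 4 per group. What the authors deposited is linear intensity, with 1 value for a probe set and array, from GCOS per the submitters' processing notes; scaling target and present calls were not found in these sources. Array medians of intensity ran from 56.0 to 103.8 and spanned 0.73 on the log2 scale, so the arrays were quantile normalized (limma 3.58.1, R 4.3.3) and taken as log2(intensity + 16). A fold is on that scale and understates changes of dim probe sets. The 57 control probe sets and the dimmest 40% were left out, which left 18625. Symbols came from the platform annotation (20832 probe sets with 1 symbol, 436 with several, 9831 with none), with names updated through the RefSeq gene table of GRCr8. One limma fit of 6 group means with an intensity trend gave the comparisons, with a separate fit for slopes. Named genes were all members, list genes that passed (at most 4 by p per list and comparison) and the 3 most alike genes per member. Members, lists and tests were chosen with earlier results of these data known. The fit was checked on simulated data. The labels name a separate animal per array, and replicate numbers only name arrays. Animal numbers run in blocks by dose group, so no comparison of groups can be told apart from animal order. For arrays, their number limits the precision.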

Additional observations from a re-analysis of the deposited data

Results flagged for a closer look

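In each of the 60 groups of 4 arrays (10 probe sets in 6 groups), the gap of the highest or lowest array to its nearest neighbour was set against the range of the group. In 4 groups 1 array stood apart by Dixon's criterion, where chance gives about 1 in 20 groups, or 3 of 60. Of these, 3 were 500 mg/kg replicate 4 in Ntrk2 probe sets, the array with high cerebellar and low forebrain markers. It read 8.13 for 1368972_at, where the other 3 arrays of its group read 9.31 to 9.46. It read 9.53 for 1383135_at against 10.56 to 10.57, and 7.43 for 1397246_at against 8.07 to 8.18. The remaining one was 200 mg/kg replicate 4 for the dim Bdnf probe set 1368678_at, at 4.99 against 5.94 to 6.09.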

How the results depend on the processing

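No paired analysis was possible because replicate numbers only name arrays. Counts are of members passing in limma. At 5, 20, 20 against 200 mg/kg and over all 6 groups they were 1, 2, 1 and 2. They were 0 in each with 1 probe set per gene (Ntrk2 at 1383135_at), with the Gapdh ratio as a covariate, and with it but without 500 mg/kg replicate 4. The covariate also turned 1370687_a_at at 20 mg/kg to -0.11, and it cannot be told apart from dose group at 5 and 20 mg/kg. Array weights gave 2 at 5 mg/kg, 2 in 20 against 200 mg/kg and 4 over all groups. There 1673, 1470 and 2340 of all 18625 probe sets passed, against 1028, 271 and 1105 in the main fit. The 8 arrays of both groups alone gave 2 at 5 mg/kg, where 923 of all probe sets passed. Array weights, these 8 arrays and a pseudocount of 64 each gave 3 at 20 mg/kg, and the pseudocount 3 over all groups. At 20 mg/kg 2432, 1390 and 1596 of all probe sets passed, against 1580, and over all groups 1114 with the pseudocount. A filter of 60% gave 1 at 20 mg/kg, 0 in 20 against 200 mg/kg and 1 over all groups, since 1370652_at lay below it, and no filter gave 0 in 20 against 200 mg/kg. Under that filter 1256, 239 and 935 of 12416 probe sets passed, and with no filter 200 of 31042. The slope count was 0, 2 within treated groups, and 3 there without 500 mg/kg replicate 4, a setting added after the data were seen. Of all probe sets 0%, 10.3% and 7.82% passed in these. Of the pathway genes, median centring gave 2 at 5 mg/kg in place of 1 and no filter 3 at 20 mg/kg in place of 6. Without 500 mg/kg replicate 4 there were 2 at 5, 13 at 20 and 4 in 20 against 200 mg/kg. The cause of the other moves was not tested. Leaving out each array in turn gave 0 to 3 members at 5 mg/kg, 1 to 3 at 20 mg/kg, 0 to 1 in 20 against 200 mg/kg and 1 to 3 over all groups. Probe set 1397246_at at 20 mg/kg passed in 24 of 24 such fits.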
